A study of Homo sapiens with 6 samples.

Results

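The protein kinase C (PKC) family was examined in the MOLT-4 leukemia line, which was established from a human acute lymphoblastic leukemia of T cells (T-ALL), by the RNA level of 8 genes among the 60640 gene identifiers of the deposited tables: PRKCA, PRKCB, PRKCD, PRKCE, PRKCH, PRKCI, PRKCQ and PRKCZ. Each gene was found by its symbol, on a single row per table. The polyA RNA came from 3 libraries of wild type MOLT-4, the control of the CRISPR knockout, and from 3 libraries of IK-KO cells, in which IKZF1, the gene of the zinc-finger protein IKAROS, was targeted by CRISPR. Both groups grew in the same serum-containing medium, and the labels name no drug or other agent for either. The edited and control cells were bought ready-made. The study's supplement shows a western blot for IKAROS on more than 1 knockout clone of MOLT-4. The labels do not say whether the IK-KO libraries come from 1 clone or whether the replicates are separate cultures, so clonal differences and loss of IKAROS cannot be told apart, and, since the study's methods speak of technical replicates, p-values measure only the spread between these libraries, which may be technical. The family was picked from the wild type against IK-KO contrast with its values already known. Its differences between the groups are therefore a description and are given without p-values.

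PKC enzymes are serine and threonine kinases that relay signals from the membrane. The conventional forms (alpha, encoded by PRKCA, and beta, encoded by PRKCB) respond to calcium and to the lipid diacylglycerol. The calcium-independent forms (delta, epsilon, eta and theta, encoded by PRKCD, PRKCE, PRKCH and PRKCQ) respond to diacylglycerol alone, and the atypical forms (iota and zeta, encoded by PRKCI and PRKCZ) respond to neither. In T cells, the antigen receptor activates phospholipase C, which makes diacylglycerol. PKC theta then acts at the contact with the antigen-presenting cell and links the receptor to NF-kB.

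The proximal promoters of 3 members are shown because these genes stood apart in the contrast: PRKCH and PRKCB had the lowest levels under the IK-KO label relative to wild type among the members above 10 FPKM in wild type, and PRKCQ, the T-cell form, was near its wild type level. Each line gives the 250 bases before the RefSeq start, 5′ to 3′ on the strand of the gene, from the RefSeq promoter table on GRCh38.p14, with CG dinucleotides in capitals. The windows are chr14:61321329-61321578 (plus strand) for PRKCH, chr16:23835733-23835982 (plus strand) for PRKCB and chr10:6580647-6580896 (minus strand) for PRKCQ.
PRKCH: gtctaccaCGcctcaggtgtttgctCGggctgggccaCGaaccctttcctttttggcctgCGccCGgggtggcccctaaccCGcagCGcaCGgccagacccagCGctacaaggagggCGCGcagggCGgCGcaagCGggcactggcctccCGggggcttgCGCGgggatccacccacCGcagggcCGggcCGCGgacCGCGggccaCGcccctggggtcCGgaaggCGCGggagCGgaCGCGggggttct
PRKCB: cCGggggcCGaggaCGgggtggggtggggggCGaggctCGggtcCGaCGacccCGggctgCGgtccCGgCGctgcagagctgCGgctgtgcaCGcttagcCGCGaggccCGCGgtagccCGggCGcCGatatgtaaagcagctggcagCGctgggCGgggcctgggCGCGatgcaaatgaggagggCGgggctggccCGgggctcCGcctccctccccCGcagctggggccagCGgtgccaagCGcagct
PRKCQ: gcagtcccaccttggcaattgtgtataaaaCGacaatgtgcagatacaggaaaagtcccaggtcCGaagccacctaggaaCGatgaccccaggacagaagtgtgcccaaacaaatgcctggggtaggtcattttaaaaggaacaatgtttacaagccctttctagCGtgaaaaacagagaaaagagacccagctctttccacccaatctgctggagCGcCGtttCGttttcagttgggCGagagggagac

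The PRKCH and PRKCB windows each hold 30 CG dinucleotides, more than 87.6% of the 35116 RefSeq windows of this length, whose median is 11. The PRKCQ window holds 8. Of the other members with a single window, PRKCA has 47, PRKCE 23 and PRKCI 12. Whether CG content goes with the differences in level was not tested. The G and C content is 75.2% for PRKCH, 77.2% for PRKCB and 49.2% for PRKCQ. IKAROS is known to bind DNA with a GGGAA core. Neither TGGGAA nor the shorter GGGAA it contains is present on either strand of these 3 windows. All 8 members matched the table, with 13 windows in all, since PRKCD and PRKCZ have several starts. TGGGAA was found in 3 of the 13 windows, those of PRKCA and of 1 start each of PRKCD and PRKCZ, against 20.8% of all windows. GGGAA was found in 6 of the 13, against 59.0% of all windows. These are matches of letters, and binding was not measured here. The PRKCH window lies within the span of AL359220.1, a long noncoding RNA gene on the opposite strand, and the PRKCQ window likewise lies within the span of PRKCQ-AS1. The annotated span of PRKCH begins upstream of its window, at 61187559, and covers 27 annotated transcripts. A start further upstream would not be shown by that window.

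The values are FPKM, which scale fragments by transcript length and by mapped fragments, and levels are set beside each other between genes and libraries on that scale. The scaling does not correct for differences in the whole RNA profile of a library, or for uncertain assignment of fragments among transcripts. Summed over all genes, FPKM came to between 699352 and 738051 per library. Each estimate has a lower and an upper bound, and these bounds place the depth at between 15.9 and 19.3 fragments per FPKM and kilobase, with overlapping groups. All 9 T-lineage markers had an FPKM of at least 1 in every library, with sums from 4592 to 4831 FPKM in wild type and from 5486 to 5960 FPKM under the IK-KO label. Most of that sum is TRBC2, a T-cell receptor constant gene, at 3225 to 3456 and 3960 to 4260 FPKM. The markers did not move together: 4 of the 9 (TRBC2, CD247, CD3D and CD3G) were higher without overlap, 3 (CD2, CD5 and CD7) were lower without overlap, and the groups overlapped for CD3E and LCK. CD2, an adhesion receptor, was at 58.9 to 63.7 FPKM in wild type and 4.98 to 5.39 FPKM under the IK-KO label, CD7 at 15.2 to 16.8 and 3.17 to 5.09 FPKM, CD5 at 24.1 to 26.2 and 10.2 to 13.4 FPKM, and CD247 at 65.0 to 66.6 and 232 to 262 FPKM. The part of these shifts in the differences below was not tested. The sums of the 5 B-lineage, 5 myeloid, 4 erythroid and 3 fibroblast markers reached at most 3.62, 0.617, 0.911 and 0.229 FPKM in any library. MS4A1, CSF1R, HBG1 and COL1A2 were each at 0 in most libraries. Not all were: among the B-lineage markers, CD79B was at 0.720 to 1.43 FPKM and CD79A at 0.125 to 1.83 FPKM. IKZF1 was at 134, 124 and 105 FPKM in wild type, against 207, 260 and 207 FPKM under the IK-KO label, so the RNA of the targeted gene was higher, not lower, under that label. By the study's methods the knockout was checked by PCR and western blot, and the protein was not measured in the files used here. In bulk RNA, fewer cells that express a gene and less RNA per cell cannot be told apart.

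The PKC pool as a whole was smaller under the IK-KO label. The 8 genes summed to 113 ± 4.48 FPKM (SD, n = 3) in wild type and to 66.3 ± 5.10 FPKM (SD, n = 3) under the IK-KO label, with ranges of 108 to 117 and 61.1 to 71.3 FPKM that do not overlap. The difference of the means was 46.6 FPKM, of which PRKCH and PRKCB together made up 42.1 FPKM. The other 6 members summed to 53.8 ± 1.88 and 49.4 ± 2.40 FPKM (SD, n = 3). The calcium-independent forms (PRKCD, PRKCE, PRKCH and PRKCQ) held 45.3% ± 2.68 of the pool in wild type and 32.1% ± 1.90 under the IK-KO label (SD, n = 3). Atypical forms, almost wholly PRKCI, held 12.4% ± 2.16 and 23.5% ± 0.638 (SD, n = 3). Conventional forms held 42.3% ± 3.72 and 44.4% ± 1.27 (SD, n = 3), although their sum was lower, at 29.5 ± 2.28 against 47.7 ± 4.99 FPKM (SD, n = 3).

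**Figure D1:**
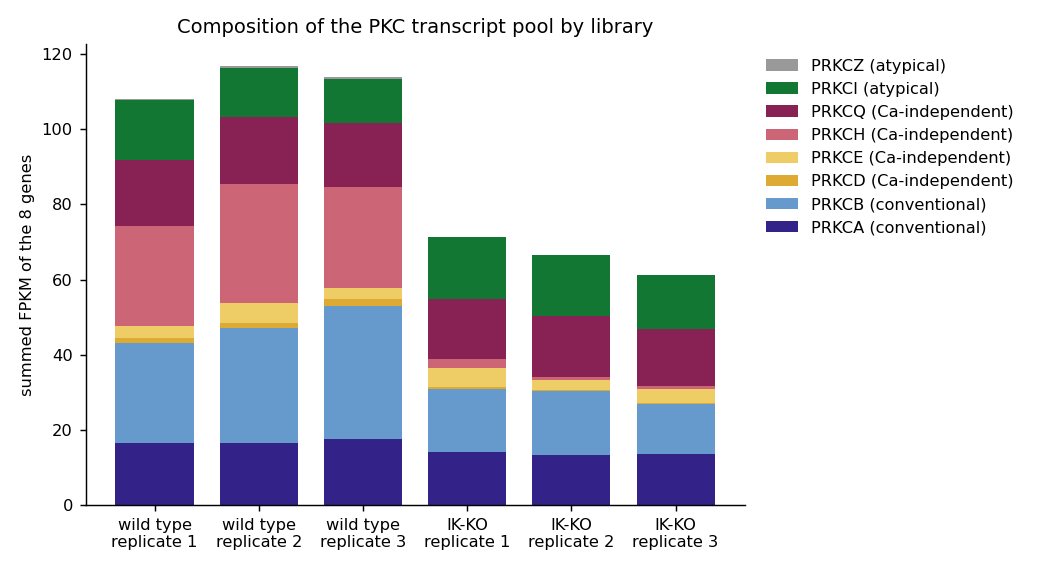
Summed FPKM (vertical axis) of the 8 PKC genes in each of the 3 wild type and 3 IK-KO libraries, with 1 colored segment per gene. The wild type bars reach 108 to 117 FPKM and the IK-KO bars 61.1 to 71.3 FPKM, and the PRKCH segment is nearly absent from the IK-KO bars.

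Of the 8 members, 6 passed the filter of a mean of at least 1 FPKM over the 6 libraries. In the limma fit over all 12652 genes that passed, 3 of these 6 (PRKCH, PRKCB and PRKCA) had an adjusted p under 0.05, all lower under the IK-KO label, beside 19.9% of all tested genes in either direction and 9.75% in that direction. No overlap between the groups was seen in 4 of the 6 (PRKCH, PRKCB, PRKCA and PRKCQ), beside 39% of all tested genes. PRKCH alone was both called and at least 2-fold lower, beside 2.1% of all tested genes, with PRKCB just outside that limit. Without the filter all 8 entered the fit, over 26818 genes, and 5 were called, PRKCD and PRKCZ being added, beside 7.57% of all genes in that fit. Since the contrast chose the family, nothing is read from these counts. PRKCD, with a mean of 0.939 FPKM, lay just outside the filter and PRKCZ far below it, whereas PRKCE, the lowest member inside, had a mean of 3.86 FPKM.

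Among the calcium-independent forms, PRKCH (ENSG00000027075.15, chromosome 14, 61187559 to 61550976, plus strand, GRCh38) differed most. It encodes PKC eta, a form found in epithelia and lymphoid cells. Its level was 26.4, 31.5 and 26.7 FPKM in wild type replicates 1 to 3 and 2.32, 0.744 and 0.658 FPKM in IK-KO replicates 1 to 3. All IK-KO values lay far below all wild type values, and IK-KO replicate 1 stood above the other two. The mean was 28.2 ± 2.88 FPKM in wild type and 1.24 ± 0.938 FPKM under the IK-KO label (SD, n = 3), 22.7-fold lower. The fold was 40.2, 18.9 and 18.4 when IK-KO replicates 1, 2 and 3 were left out in turn. The log2 change was −3.78 (SE 0.26). The lowest lower bound in wild type was 20.0 FPKM and the highest upper bound under the IK-KO label 4.67 FPKM. All 3 lower bounds under that label were 0, so by the bounds the remaining level is known only from above. By the inferred depth, 3 fragments of the canonical transcript equal 0.0418 to 0.0509 FPKM, below the listed values. The reason for such wide bounds was not tested.

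A transcript from the opposite strand had the same split between groups. AL359220.1, chosen after its values were seen, lies across the RefSeq start of PRKCH (chromosome 14, 61294909 to 61322838). It was at 1.48, 1.55 and 1.57 FPKM in wild type and listed at 0 in all 3 libraries labelled IK-KO. Its mean over the 6 libraries was 0.767 FPKM, below the filter, so it was not tested. AL355916.2, a second long noncoding gene opposite PRKCH, was listed at 0 in the same 3 libraries, and at 0.168, 0.563 and 0.342 FPKM in wild type. Whether fragments were assigned by strand is not given in the sources used here, and fragments from the opposing genes may not be separable. TMEM30B, a protein-coding gene inside the PRKCH span but upstream of its RefSeq start, was listed at 0 in all 6 libraries.

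PRKCQ (ENSG00000065675.15, chromosome 10, 6427143 to 6580301, minus strand) encodes PKC theta. It was at 17.7, 17.9 and 17.0 FPKM in wild type, against 16.1, 16.3 and 15.1 FPKM under the IK-KO label. The groups did not overlap, but the gap between them was small. The bounds did overlap: the lowest lower bound in wild type was 15.7 FPKM and the highest upper bound under the IK-KO label 17.5 FPKM. The mean was 17.5 ± 0.491 and 15.8 ± 0.619 FPKM (SD, n = 3), 90.4% of wild type, with a log2 change of −0.14 (SE 0.07). Set against PRKCQ in the same library, PRKCH was 1.49 to 1.76 times as abundant in wild type and 0.0434 to 0.145 times as abundant under the IK-KO label. PRKCQ-AS1, the next tested gene beyond the start of PRKCQ and 117 bases away by the annotated spans, was at 34.1 ± 1.55 and 32.2 ± 5.85 FPKM (SD, n = 3), a level above that of PRKCQ in both groups. The RefSeq start of PRKCQ, at 6580646, lies inside the span of PRKCQ-AS1, and fragments of these opposing genes may not be separable.

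PRKCD (ENSG00000163932.15, chromosome 3, 53156009 to 53192717, plus strand) encodes PKC delta, known for a role in apoptosis and in B-cell tolerance. It was low throughout, at 1.43, 1.32 and 1.87 FPKM in wild type, against 0.452, 0.134 and 0.421 FPKM under the IK-KO label. The listed values do not overlap, and the mean was 1.54 ± 0.290 against 0.336 ± 0.175 FPKM (SD, n = 3), 4.59-fold lower and between 3.53-fold and 5.56-fold lower when each IK-KO replicate in turn was left out. The bounds of the groups did overlap: the highest upper bound under the IK-KO label was 1.06 FPKM and the lowest lower bound in wild type 0.741 FPKM. As for PRKCH, all 3 lower bounds under the IK-KO label were 0, so by the bounds these folds have no upper limit. PRKCE (ENSG00000171132.14, chromosome 2, 45651345 to 46187990, plus strand), the gene of PKC epsilon, was at 3.24, 5.34 and 3.03 FPKM in wild type, against 5.08, 2.69 and 3.78 FPKM under the IK-KO label. These values were intermingled, with means of 3.87 ± 1.28 and 3.85 ± 1.19 FPKM (SD, n = 3) and a log2 change of −0.01 (SE 0.24). With this spread, neither equality nor a modest difference can be read from PRKCE.

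**Figure D2:**
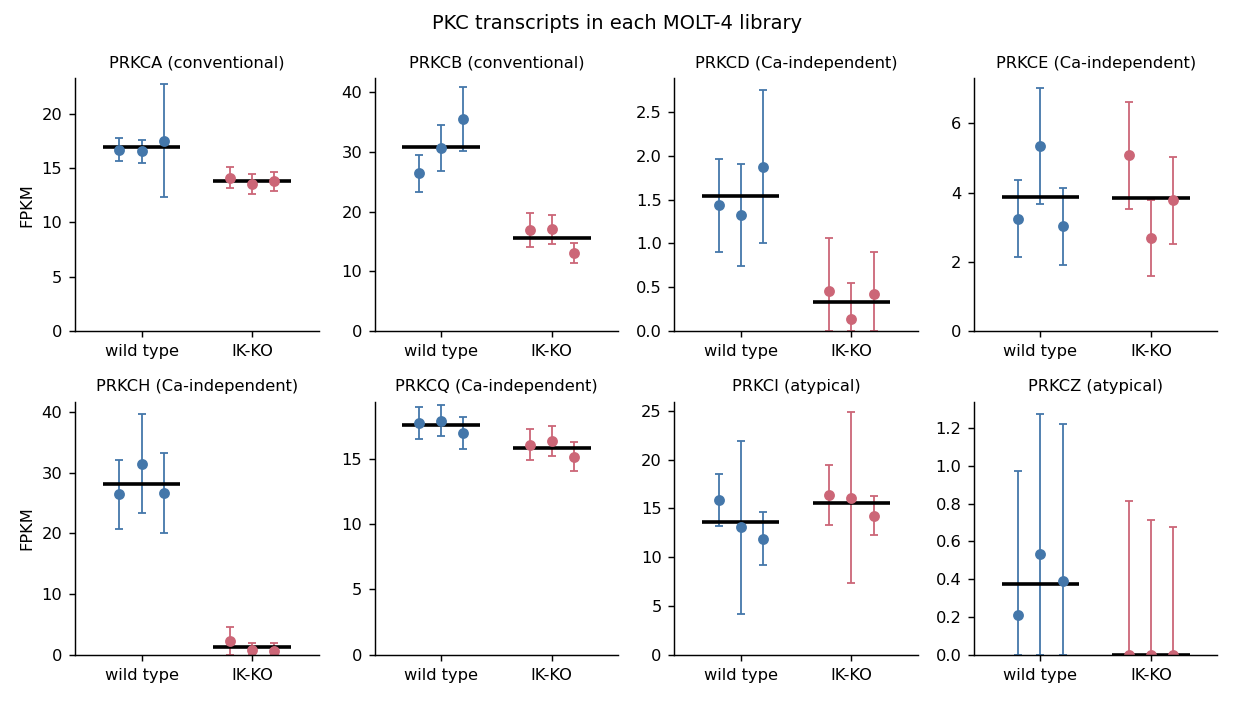
FPKM (vertical axes, each from 0 with its own scale) of each PKC gene in the 3 wild type (blue) and 3 IK-KO (red) libraries. Points are libraries, whiskers the lower and upper bounds of the deposited estimate and black lines group means. PRKCH and PRKCB separate clearly, PRKCA and PRKCQ by a small gap between points with overlapping whiskers, and PRKCE and PRKCI overlap.

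Both conventional members were lower under the IK-KO label, PRKCB by more. PRKCB (ENSG00000166501.14, chromosome 16, 23835983 to 24220611, plus strand), the gene of PKC beta, which is prominent in B-cell receptor signaling, was at 26.4, 30.6 and 35.4 FPKM in wild type, against 16.9, 17.0 and 13.0 FPKM under the IK-KO label. Every wild type value exceeded every IK-KO value. The mean was 30.8 ± 4.54 against 15.7 ± 2.25 FPKM (SD, n = 3), 1.97-fold lower, with a log2 change of −0.93 (SE 0.14). The lowest lower bound in wild type, 23.3 FPKM, lay above the highest upper bound under the IK-KO label, 19.8 FPKM. PRKCA (ENSG00000154229.12, chromosome 17, 66302613 to 66810743, plus strand), the gene of PKC alpha, was at 16.7, 16.5 and 17.5 FPKM in wild type, against 14.1, 13.5 and 13.8 FPKM under the IK-KO label. The replicates of each group were close together, and the mean of 13.8 ± 0.301 FPKM was 81.6% of the wild type mean of 16.9 ± 0.535 FPKM (SD, n = 3), for a log2 change of −0.27 (SE 0.06). The bounds of PRKCA in wild type replicate 3 were wide, 12.3 to 22.7 FPKM, and reached below every IK-KO value. PRKCA was not among the called genes when any 1 of the 6 libraries was left out, whereas PRKCH and PRKCB were in each of those fits. These fits reuse the values that chose the family, so nothing is read from the calls. The ratio of PRKCB to PRKCA was 1.58 to 2.02 in wild type and 0.947 to 1.26 under the IK-KO label.

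The atypical forms were carried by PRKCI. PRKCI (ENSG00000163558.13, chromosome 3, 170222424 to 170305977, plus strand) encodes PKC iota, a component of the PAR polarity complex. It was at 15.9, 13.0 and 11.9 FPKM in wild type, against 16.3, 16.1 and 14.3 FPKM under the IK-KO label. The ranges overlapped, and the mean was 13.6 ± 2.03 against 15.6 ± 1.14 FPKM (SD, n = 3), for a log2 change of 0.19 (SE 0.11). Replicate 2 of each group had wide bounds, 4.21 to 21.9 FPKM in wild type and 7.31 to 24.8 FPKM under the IK-KO label. PRKCZ (ENSG00000067606.17, chromosome 1, 2050411 to 2185395, plus strand), the gene of PKC zeta, was at 0.210, 0.531 and 0.389 FPKM in wild type and listed at 0 in each IK-KO library. The listed values did not overlap, but the bounds did: all 3 wild type lower bounds were 0 and the upper bounds under the IK-KO label, 0.675 to 0.817 FPKM, lay above every wild type value. FAAP20, a DNA repair gene, overlaps the end of PRKCZ on the opposite strand and was at 70.1 ± 11.0 and 68.3 ± 0.486 FPKM (SD, n = 3).

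The order of the members by mean level differed between the groups. In wild type it ran PRKCB, PRKCH, PRKCQ, PRKCA, PRKCI, PRKCE, PRKCD, PRKCZ. The ranges overlapped between PRKCB and PRKCH and between PRKCQ and PRKCA, and no other neighbors in that order overlapped. In the libraries labelled IK-KO it ran PRKCQ, PRKCB, PRKCI, PRKCA, PRKCE, PRKCH, PRKCD, PRKCZ, with overlapping ranges among PRKCQ, PRKCB and PRKCI. PRKCH thus stood at rank 2 in wild type and at rank 6 under the IK-KO label, where it held 1.82% ± 1.25 of the pool against 25.0% ± 1.83 in wild type (SD, n = 3).

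Genes near the members were compared as well, to see whether a member moved with its stretch of chromosome. For PRKCH, the 10 tested genes within 1 Mb had a median log2 change of 0.20, the 45 within 5 Mb a median of 0.05, and the tested genes on either side, SLC38A6 and HIF1A, had log2 changes of 0.25 and −0.24 (limma adjusted p 0.160 and 0.102). For PRKCB, the 16 tested genes within 1 Mb had a median of 0.07. PLK1, the mitotic kinase gene next to it, was lower (log2 change −0.35, limma adjusted p 0.00433), and RBBP6 on the other side was not called (log2 change 0.09, limma adjusted p 0.474). For PRKCA, whose own log2 change was −0.27, the 6 tested genes within 1 Mb had a median of −0.18. Of these 6, 1 was called higher and 1 lower, and the 56 within 5 Mb had a median of 0.06. For PRKCQ, PRKCD, PRKCE and PRKCZ the medians within 1 Mb were 0.04, 0.04, 0.02 and 0.04. Around PRKCI they were −0.10 within 1 Mb and −0.20 within 5 Mb, against its own 0.19. The medians of all tested genes on the members' chromosomes lay between −0.01 and 0.06.

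**Figure D3:**
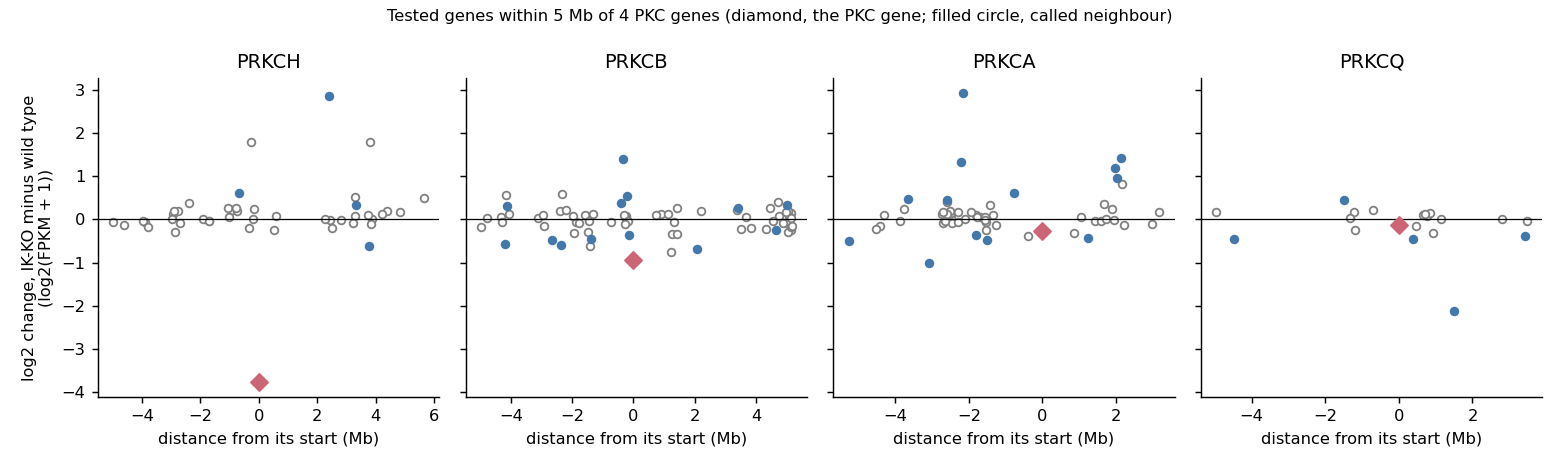
Log2 change on log2(FPKM + 1), IK-KO minus wild type (vertical axis), of tested genes within 5 Mb of 4 PKC genes against the distance of their midpoint from the start of the PKC gene in Mb, positive downstream. Red diamonds are the PKC genes, filled circles genes with a limma adjusted p under 0.05 and open circles the others. PRKCH, at −3.78, lies below every neighbor plotted.

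By likeness of pattern, the genes closest to PRKCH over the 6 libraries, by Pearson r of log2(FPKM + 1), were TRAP1 (r 0.998), TRAK1 (r 0.998), DSTN (r 0.997), SQOR (r 0.997) and MRPL45 (r 0.997). Their log2 changes ran from −0.23 (MRPL45) to −1.61 (SQOR), all smaller in size than that of PRKCH. With 2 groups that differ, r is high for many genes: 560 of 12646 had an r of at least 0.95, and the points share their libraries.

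The wider pathway was described through 7 lists, read beside all tested genes, of which 19.9% were called, 10.1% higher and 9.75% lower. The median log2 change of all tested genes was 0.02. The lists were chosen with earlier results of these data known, so their counts and p-values are a description. Of the 101 listed genes, 74 were tested and 21 called, 10 higher and 11 lower under the IK-KO label. Among kinases related to PKC, such as protein kinases D and N, 1 of 5 tested genes was called. PRKD2, a kinase activated by PKC downstream of diacylglycerol, was at 23.2, 21.9 and 28.6 FPKM in wild type, against 15.9, 15.3 and 15.4 FPKM under the IK-KO label. It fell by 0.62 on the log2 scale (SE 0.10, limma adjusted p 0.00641). PRKD3, PKN2 and PKN3 were not called, with log2 changes between 0.15 and 0.34, and PRKD1 was at 0 in all libraries. PKN3, which lies on chromosome 9, had a log2 change of 0.70 and was called once the median change of tested genes within 5 Mb had been subtracted in each library, an alternative referred to as neighbors removed (limma adjusted p 0.00669).

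Enzymes that make or remove diacylglycerol, the lipid that activates conventional and calcium-independent PKC, followed. Of 24 listed, 14 were tested and 3 called, all lower, with a list median of −0.05. Over all tested genes, 9.75% were called lower. PLCB2, a phospholipase C driven by G proteins, was at 10.1, 9.74 and 13.0 FPKM in wild type, against 2.82, 3.54 and 1.75 FPKM under the IK-KO label (log2 change −1.71, SE 0.20, limma adjusted p 0.00163). PLCG2, the phospholipase C gamma of B cells and myeloid cells, fell from 3.12 ± 0.508 to 0.816 ± 0.244 FPKM (SD, n = 3; log2 change −1.18, limma adjusted p 0.00390). PLCG1, the form that acts below the T-cell receptor, was far more abundant and was not called, at 149, 146 and 118 FPKM in wild type, against 163, 139 and 115 FPKM under the IK-KO label. DGKA, a kinase that removes diacylglycerol in T cells, fell from 38.1 ± 1.84 to 26.5 ± 1.54 FPKM (SD, n = 3; log2 change −0.51, limma adjusted p 0.00286). DGKZ, the other main T-cell form, was not called (log2 change 0.11). PLCB1, below the filter and named after its values were seen, was at 1.68, 1.46 and 0.914 FPKM in wild type, against 0.0533, 0 and 0.117 FPKM under the IK-KO label.

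The next list was of other proteins with a C1 domain, the fold through which PKC binds diacylglycerol. It had 6 of 10 genes tested and 4 called, 2 higher and 2 lower. UNC13D is counted in it by family but lacks that domain. UNC13D, needed for release of cytotoxic granules, fell from 46.7 ± 1.56 to 31.7 ± 0.0616 FPKM (SD, n = 3; log2 change −0.54, limma adjusted p 0.000706). CHN1, a Rac GTPase-activating protein, rose from 18.3 ± 2.88 to 29.4 ± 3.58 FPKM (SD, n = 3; log2 change 0.66, limma adjusted p 0.0139). UNC13B rose from 3.01 ± 0.189 to 4.46 ± 0.177 FPKM (SD, n = 3; log2 change 0.45, limma adjusted p 0.0241). RASGRP1, which activates RAS in T cells, fell from 16.5 ± 1.38 to 12.5 ± 1.06 FPKM (SD, n = 3; log2 change −0.37, limma adjusted p 0.0324). RASGRP1 and UNC13B lost their calls in 7 alternatives each, leaving 2 called genes under the replicate block and in 4 of the fits that left out 1 library (wild type replicate 2 and each IK-KO replicate in turn). RASGRP3, below the filter and named after its values were seen, was at 0.724, 0.606 and 0.576 FPKM in wild type, against 0.0399, 0.0717 and 0.0317 FPKM under the IK-KO label.

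**Figure D4:**
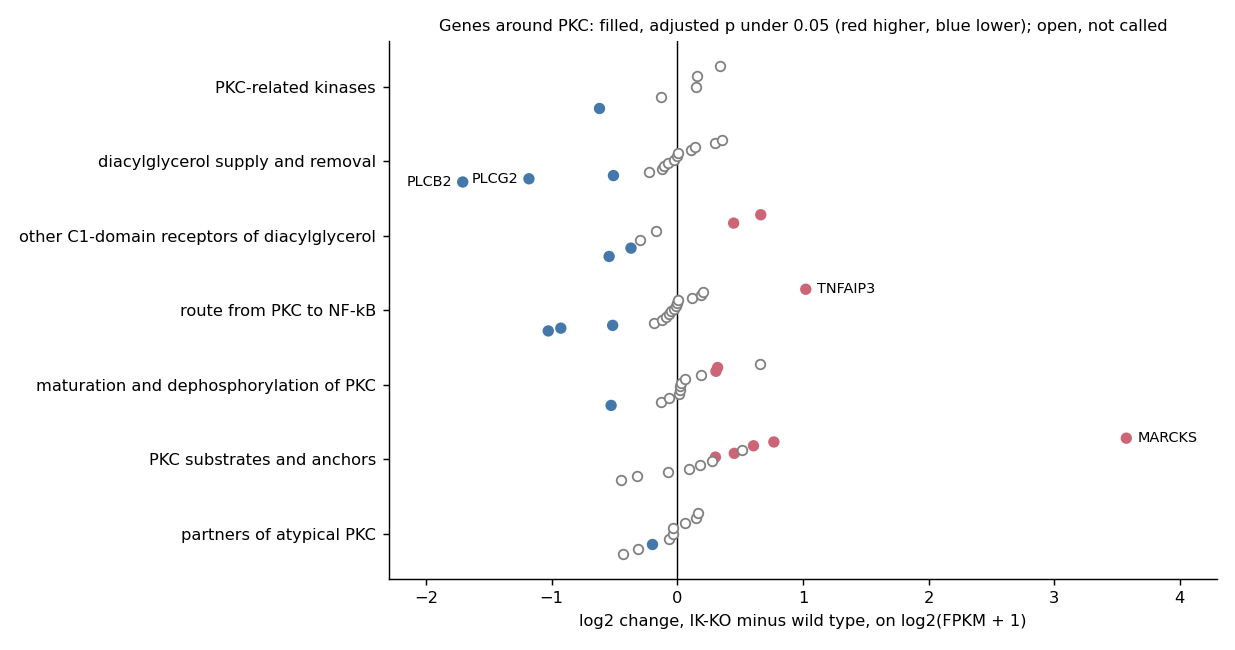
Log2 change on log2(FPKM + 1), IK-KO minus wild type (horizontal axis), of the 74 tested genes of 7 lists around PKC (rows). Filled points have a limma adjusted p under 0.05, red higher and blue lower under the IK-KO label, and open points were not called; PLCB2, PLCG2, TNFAIP3 and MARCKS, each beyond a log2 change of 1 in either direction, are named.

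Along the route from PKC theta to NF-kB, 16 of 19 genes were tested and 4 called, 1 higher and 3 lower, with a list median of −0.04. BCL10 and MALT1, which act together on this route, were not called, at log2 changes of 0.21 and −0.12. The deubiquitinase CYLD fell from 11.6 ± 2.08 to 5.61 ± 0.725 FPKM (SD, n = 3; log2 change −0.93, limma adjusted p 0.00493), and TNFAIP3, which encodes A20 and is itself a brake on NF-kB, rose from 11.1 ± 2.01 to 23.3 ± 1.52 FPKM (SD, n = 3; log2 change 1.02, limma adjusted p 0.00243). TRAF2, on chromosome 9, fell from 17.5 ± 0.890 to 11.9 ± 0.850 FPKM (SD, n = 3; log2 change −0.52, limma adjusted p 0.00515), and was not called with neighbors removed (log2 change −0.16, limma adjusted p 0.192).

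Of 12 genes whose products mature PKC or remove its phosphates, all were tested and 3 called, 2 higher and 1 lower. HSP90AB1, a chaperone of kinases, rose from 903 ± 38.4 to 1128 ± 13.9 FPKM (SD, n = 3; log2 change 0.32, limma adjusted p 0.00314). PPP2CA, the catalytic subunit of protein phosphatase 2A, rose from 136 ± 9.88 to 169 ± 5.92 FPKM (SD, n = 3; log2 change 0.31, limma adjusted p 0.0149). MAPKAP1, a subunit of mTORC2, fell from 55.4 ± 1.79 to 38.4 ± 5.65 FPKM (SD, n = 3; log2 change −0.53, limma adjusted p 0.0140). None of the 3 was called with neighbors removed; HSP90AB1 lies on chromosome 6 and MAPKAP1 on chromosome 9. Leaving out wild type replicate 1 or 2 ended the call of MAPKAP1 as well (limma adjusted p 0.0506 and 0.0539), and leaving out IK-KO replicate 1 or 2 that of PPP2CA (limma adjusted p 0.0557 and 0.0564). PHLPP1, a phosphatase of PKC and AKT, had the largest change of the list, at 1.71, 1.62 and 1.65 FPKM against 2.09, 3.92 and 3.82 FPKM, and was not called (log2 change 0.65, limma adjusted p 0.0619), though it was without IK-KO replicate 1 (limma adjusted p 0.0122).

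PKC substrates and anchors had 12 of 18 genes tested and 5 called, all higher, with a list median of 0.29. Over all tested genes, 10.1% were called higher. MARCKS, a membrane protein that PKC phosphorylates, was at 1.5 FPKM or less in each wild type library, against 27.1, 27.5 and 26.1 FPKM under the IK-KO label (log2 change 3.57, limma adjusted p 4.12e-06). MARCKS was thus 20.0-fold higher on the FPKM scale, and its log2 change was 3.36 with neighbors on chromosome 6 removed. Its relative MARCKSL1 rose from 223 ± 5.34 to 341 ± 10.1 FPKM (SD, n = 3; log2 change 0.61, limma adjusted p 0.000197). AKAP12, an anchor for PKC and protein kinase A, rose from 1.02 ± 0.167 to 2.45 ± 0.325 FPKM (SD, n = 3; log2 change 0.77, limma adjusted p 0.0130), PEBP1 from 158 ± 5.84 to 196 ± 6.84 FPKM (SD, n = 3; log2 change 0.30, limma adjusted p 0.00608), and PPP1R14B from 154 ± 19.8 to 211 ± 17.9 FPKM (SD, n = 3; log2 change 0.45, limma adjusted p 0.0232). PPP1R14B lost its call in 6 alternatives, among them without each IK-KO replicate. RACK1, the receptor for activated C kinase, was the most abundant of the list at 1230 ± 34.3 and 1168 ± 50.6 FPKM (SD, n = 3) and was not called (log2 change −0.08).

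Partners of atypical PKC had 9 of 11 genes tested and 1 called. PARD3, the polarity scaffold, was at 25.2, 25.7 and 24.3 FPKM in wild type, against 21.6, 21.2 and 22.0 FPKM under the IK-KO label (log2 change −0.20, SE 0.06, limma adjusted p 0.0484). It lost its call in 10 of 13 alternatives, among them without each of the 6 libraries. LLGL2 had the largest change of the list and was not called (log2 change −0.44, limma adjusted p 0.176). PARD6A, CDC42, SQSTM1 and LLGL1 had log2 changes between −0.06 and 0.16.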

How the data were processed

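PolyA RNA of 3 wild type and 3 IK-KO libraries of MOLT-4 was analysed, grouped by the labels, as 1 gene table per library. The authors deposited FPKM with lower and upper bounds in the Cufflinks layout, scaled by transcript length and mapped fragments. The submitters' processing notes name STAR 2.6.1c, Cufflinks 2.2.1 and hg38; the annotation and strand setting are not given in the sources used here, and no counts were used. The spans of all 8 members match GENCODE release 44. The 110 identifiers on several rows were summed, 29 genes without an estimate in some library were left out, and values below 1e-06 FPKM (643 to 688 rows per library) were read as 0. Fragments per FPKM and kilobase were inferred from the bounds of genes with 1 transcript, taking the distance to the upper bound as 2 Poisson errors.

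Group differences were tested with limma 3.58.1 in R 4.3.3 on log2(FPKM + 1), which understates changes of low genes (two-sided; lmFit and eBayes, trend on; Benjamini-Hochberg over 12652 genes with a mean of at least 1 FPKM); a gene is called at an adjusted p under 0.05. The study's methods compare conditions by an unmoderated 2-sample test after a count pipeline on a mouse genome; with FPKM and 3 libraries per group, limma was used instead. The fit was tested on simulated data. Members and lists were chosen with earlier results of these data known. Named are all members, the largest change of each list and up to 5 other called genes of it, tested genes overlapping a member and the 5 genes most like PRKCH; other names were chosen after their values were seen, and some genes that the rule names are not reported here. Alternatives are described in the closing section.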

Additional observations from a re-analysis of the deposited data

How the results depend on the processing

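With the replicate number as a block, 1805 genes were called against 2515 without it. After removal of group means, the pairs of libraries with 1 number correlated at 0.0669, 0.0248 and 0.00546. Pairs with unlike numbers correlated at −0.0878 to 0.0599. Whether libraries with 1 number share a batch was not tested. PRKCH and PRKCB were below an adjusted p of 0.05 in all 13 alternatives and PRKCE, PRKCI and PRKCQ in none. PRKCA was not under the block or without any 1 library. PRKCD and PRKCZ were tested solely without the filter on low values and were both called there. These calls of members reuse the contrast that chose the family, so they are a description and lend no support. The log2 change ranged from −4.61 (pseudocount 0.1) to −3.60 for PRKCH, from −1.04 to −0.82 for PRKCB, from −0.33 to −0.25 for PRKCA, from −0.16 to −0.11 for PRKCQ, from 0.10 to 0.43 for PRKCI and from −0.18 to 0.20, through 0, for PRKCE. Leaving out each library gave 1692 to 2004 called genes, and the other scalings 2798 and 2802.

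Of the lists, kinases related to PKC had 3 called genes with neighbors removed, and other C1-domain proteins had 2 under the replicate block and 2 to 4 without 1 library. The maturation list had 0 by limma with neighbors removed (2 at an unadjusted p under 0.05). The partners of atypical PKC had 0 by limma with a pseudocount of 0.1, without the mean-variance trend, under the block, with neighbors removed and without each library (1 or 2 at an unadjusted p under 0.05). For the 74 listed genes, 904 of 962 values kept their side of the threshold and 0 changed direction past it; the cause was not tested. PRKCZ had the lowest level of the members. For it, 3 fragments of the canonical transcript equal 0.0651 to 0.0793 FPKM, below its wild type values. The deposited upper bounds under the IK-KO label lie above those values, and the reason for such wide bounds was not tested.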
